A study of Mus musculus with 46 samples.

Results

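The 8 genes described here encode transcription factors of the microglial and wider myeloid lineage: Spi1, Sall1, Mef2a, Mef2c, Runx1, Maf, Cebpa and Cebpb. They were listed by name, with no rule on measured values but with earlier results of these data known, and were looked up by symbol in tables that hold 20999 genes. All 8 were found and all 8 were among the 12230 genes that passed the filter on low counts. RNA was read in 10 libraries, and the chromatin at each gene was read in 12 lists of H3K27ac regions (a histone acetylation of active regulatory DNA), 3 lists of ATAC peaks (open chromatin), 2 lists of H3K4me3 regions (a promoter mark) and 3 lists of Rpb2 peaks (a subunit of RNA polymerase II).

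Microglia are the macrophages that live in the brain. Spi1 encodes PU.1, an ETS factor that binds most macrophage enhancers and on which the whole lineage depends, and it works with C/EBP and RUNX factors, which help to set up myeloid enhancers early in blood cell development. The MEF2 factors, the large MAF factor c-Maf and the zinc finger repressor Sall1 act on top of this base, and Sall1 is known in the adult brain as a factor that sets microglia apart from other macrophages. C/EBPβ is encoded by an intronless gene that responds quickly to inflammatory and growth signals.

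The design asked what dividing microglia share across settings and what depends on the setting. All mice were male and of strain C57BL/6. For RNA, the adult group was wild-type mice of 90 days that the labels give as untreated, though their column headers carry the word Vehicle, and its cells are labelled Ki67-negative, where Ki67 is a protein of cycling cells. The other RNA libraries came from mice of genotype Ki67-rfp, a fluorescent reporter, at postnatal day 8 (PND8, untreated) or at 75 days, in both cases as Ki67-negative and Ki67-positive cells. The mice of 75 days had eaten PLX5622, a CSF1R inhibitor that depletes microglia, for 17 days from day 55 and had then recovered for 3 days, and their microglia are called repopulating here. H3K27ac was profiled in wild-type mice in 6 groups. These were adult cells (60 and 65 days), PND8 cells of either Ki67 status, cells of either status from mice of 90 days after 4 weeks of cuprizone (a toxin that strips myelin), and repopulating Ki67-positive cells of 90 days that had started PLX5622 on day 70. ATAC lists came from adult (80 days), PND8 Ki67-positive and repopulating Ki67-positive microglia (75 days), all with wild type as the labelled genotype although the titles of the latter pair name Ki67rfp, H3K4me3 lists from adult mice of 75 days, and Rpb2 lists from adult (60 and 65 days) and PND8 Ki67-positive cells. Cells of all groups were taken from perfused brains, kept on ice with butyrate and flavopiridol, and stained for CD11b, CD45 and CD44, and cells for chromatin immunoprecipitation were first fixed with 1% paraformaldehyde and sorted on Ki67 protein. The labels call the 2 libraries of each RNA group independent biological replicates and do not say whether animals were pooled, and the RNA of a library came from 200000 cells.

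RNA libraries held 6865903 to 10287876 counts. Mki67, which encodes Ki67, had at most 13.4 CPM (counts scaled to the library total) in the adult libraries, 242 to 463 CPM in the 4 Ki67-negative libraries of PND8 and repopulation, and 919.6 to 1107 CPM in the 4 Ki67-positive ones, so the Ki67-negative cells of those settings were above the adult cells. The 13 microglial identity genes, P2ry12 and Tmem119 among them, summed to 9274 and 9394 CPM in the adult libraries and to 7212 to 9203 CPM in the others. The 7 markers of border macrophages summed to 64.5 and 79.8 CPM in adult, 607 to 859 CPM at PND8 (mostly Mrc1, 519.6 to 834 CPM) and 26.2 to 43.0 CPM in repopulation, where Lyve1 was at 0 in all 4 libraries. The 9 monocyte and neutrophil markers summed to 70.0 and 229 CPM in adult against 7.71 to 18.5 CPM elsewhere. Immediate early and heat shock genes, 18 in all, summed to 1766 and 1910 CPM in adult, 1028 to 2743 CPM at PND8 and 1008 to 1059 CPM in repopulation, and were higher in replicate 1 than in replicate 2 of both PND8 groups. Markers of astrocytes, oligodendrocytes, endothelial cells, neurons, lymphocytes and red cells summed to at most 559 CPM each in any library. Those of astrocytes summed to 240 and 248 CPM in adult, 60.7 to 429 at PND8 and 406 to 559 in repopulation. Slc1a3 carried most of the astrocyte sum in every group, with 398 to 552 CPM in repopulation, where no other astrocyte marker was above 2.89 CPM. The part of these other cells and of handling in the results was not tested. In bulk RNA, fewer cells of a type and less RNA per cell cannot be told apart. The adult libraries also differ from all others in genotype and in the numeric code of their column headers, so neither can be told apart from a difference between adult and the other groups.

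Promoter sequence from RefSeq (GRCm38.p6, the build of the mm10 files) was at hand for 6 of the 8 genes, at 11 transcript starts; Spi1 and Maf had no entry. The 250 bases before the start are shown for 3 of the 5 genes with an entry at the start that the count table uses, the 3 in which an ATAC peak of all 3 lists (adult, PND8 and repopulation) reached into these bases; the entries of Mef2c are at other starts. Capitals mark the bases inside that peak in all 3 lists, and every sequence runs from 5′ to 3′ toward the gene. Runx1 lies on the minus strand (chr16:92697330-92697579), Cebpa on the plus strand (chr7:35119043-35119292) and Cebpb on the plus strand (chr2:167688665-167688914).
Runx1: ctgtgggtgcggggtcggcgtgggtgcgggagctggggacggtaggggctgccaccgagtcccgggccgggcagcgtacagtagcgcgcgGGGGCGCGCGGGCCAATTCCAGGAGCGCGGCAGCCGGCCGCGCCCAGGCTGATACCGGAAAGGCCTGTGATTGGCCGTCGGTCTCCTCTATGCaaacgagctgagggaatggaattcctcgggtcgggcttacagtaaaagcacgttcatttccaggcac
Cebpa: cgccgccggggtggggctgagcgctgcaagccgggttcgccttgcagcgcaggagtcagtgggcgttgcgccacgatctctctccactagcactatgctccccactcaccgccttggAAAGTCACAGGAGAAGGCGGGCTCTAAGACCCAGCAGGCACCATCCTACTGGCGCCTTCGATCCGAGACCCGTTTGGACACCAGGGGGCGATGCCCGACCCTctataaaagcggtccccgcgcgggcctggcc
Cebpb: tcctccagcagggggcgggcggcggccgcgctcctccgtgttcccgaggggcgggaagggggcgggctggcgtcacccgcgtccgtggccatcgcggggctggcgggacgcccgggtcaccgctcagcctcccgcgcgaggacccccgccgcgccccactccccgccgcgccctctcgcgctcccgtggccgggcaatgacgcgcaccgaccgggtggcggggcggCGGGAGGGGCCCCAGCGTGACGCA
The shared open stretch is 93 bases in Runx1, from 160 to 68 bases before the start, and 102 bases in Cebpa, from 133 to 32 bases before it. In Cebpb it starts 24 bases before the start and runs on into the gene. G and C make up 67.6% of the Runx1, 66.4% of the Cebpa and 81.6% of the Cebpb bases shown.

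Motifs of the factors themselves were searched on both strands in the 250 bases before each of the 11 starts. The PU.1 motif GAGGAAGT, the C/EBP motif TTGCNNAA, the RUNX motif TGTGGT and the MEF2 motif (CTA and TAG with 4 bases between them) had 0 matches, and the MAF motif TGCTGA matched at 1 start, a downstream start of Mef2c. Of 32851 such windows of the genome, 2.44%, 9.56%, 14.0%, 3.2% and 16.1% hold these letters, in that order. Core promoter boxes were added after the sequences had been read. The CCAAT box, in 33.8% of all windows, had 2 matches in the Runx1 window, at positions -148 to -144 and -91 to -87, both inside the shared open stretch. The TATA box TATAAA, in 12.4% of windows, matched in Cebpa at -30 to -25, outside the shared open stretch. The GC box GGGCGG, in 32.7% of windows, matched at 5 positions in Cebpb, 2 of which overlap, and none of the 5 is inside the shared open stretch. A match describes letters and not binding.

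None of the 8 genes passed the test between Ki67-positive and Ki67-negative cells of 1 setting. Of all genes, 5.9% did so at PND8 and 2.74% in repopulation. This test did not pair libraries by replicate number or header code, and Cebpb passed in repopulation once the code entered the fit. In some comparison of settings 7 of the 8 passed the test without the code, where each such comparison called 30.9% to 49.5% of all genes. The share of all genes called in any of these comparisons was not computed. It is no smaller than 49.5%, so the 7 of 8 cannot be read against the shares of single comparisons. Mef2a, Runx1 and Cebpa were lower at PND8 than in adult microglia, whether Ki67-positive or Ki67-negative. Maf and Runx1 were lower in repopulating cells than in adult cells, and Maf was lower in repopulating than in PND8 cells while Cebpa was higher. Mef2c and Cebpa were also called lower in both repopulating groups than in adult, and Mef2c lower than at PND8. Those further calls were lost in part when the fit, the threshold or the libraries were varied. Calls in 1 Ki67 status only are given by gene below. Spi1 passed the test in none of these comparisons. CPM are scaled to library size by TMM, and p-values are from edgeR's quasi-likelihood fit, adjusted by Benjamini-Hochberg over all 12230 genes, with 2 libraries per group and a threshold of 0.05.

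**Figure D1:**
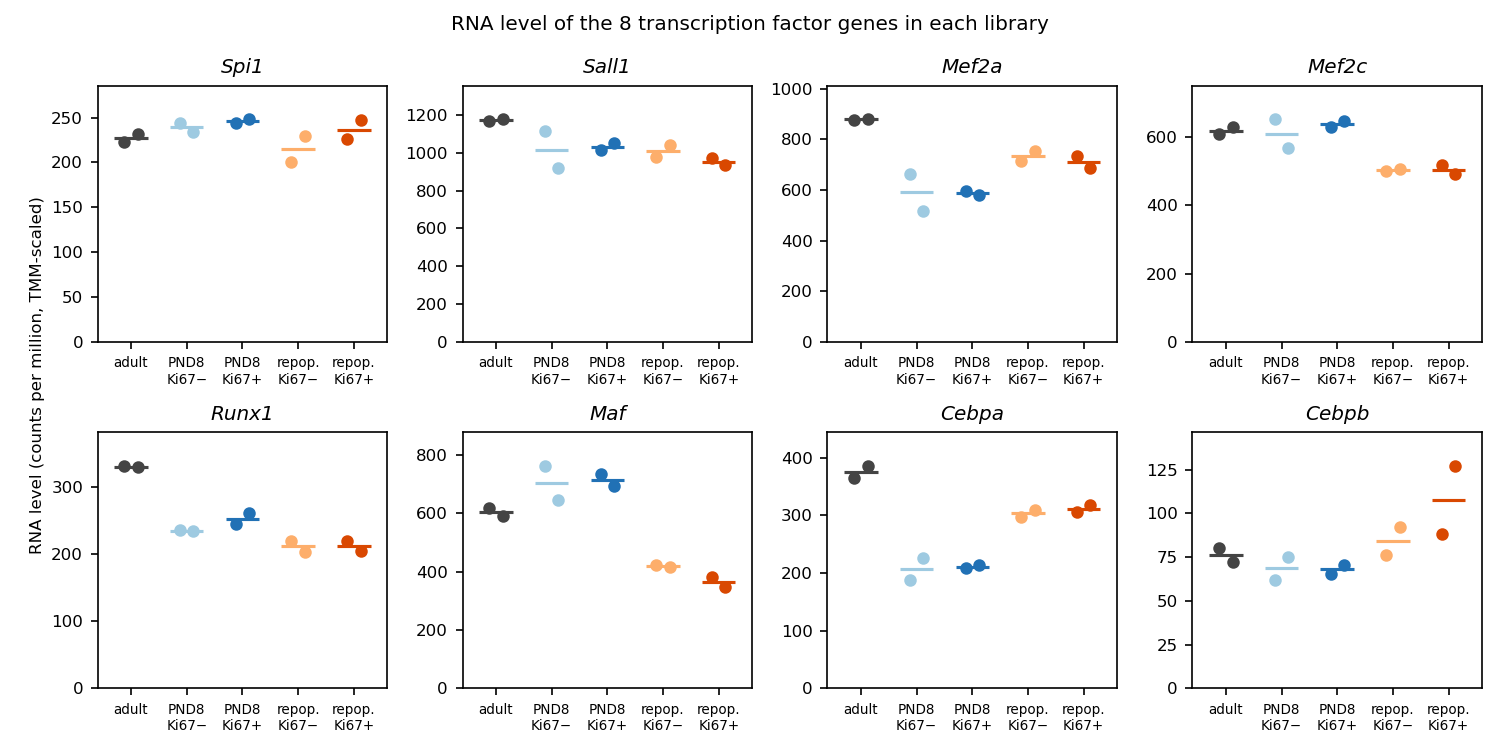
RNA level of each gene in the 10 libraries, in CPM on axes that start at 0; each point is a library and each line the mean of the 2 libraries of a group. Mef2a, Runx1 and Cebpa are highest in the adult libraries, Maf is lowest in the repopulating ones, and the Spi1 points of all groups lie between 200.4 and 248 CPM.

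Between Ki67-positive and Ki67-negative cells, 0 of the 8 genes differed at PND8, where 5.9% of all genes did (2.75% higher and 3.15% lower), and 0 of 8 in repopulation, where 2.74% of all genes did (1.87% higher and 0.867% lower). At an unadjusted p under 0.05 the counts were 0 for PND8 by edgeR, DESeq2 and limma, and 1, 2 and 1 for repopulation by these tools in that order. At PND8 the log2 fold changes ran from −0.02 (Cebpb) to 0.10 (Runx1), with a median of 0.03 against −0.03 for all genes. The widest 95% interval among them, that of Cebpb, ran from −0.36 to 0.33, and that of Spi1 from −0.15 to 0.23. Values for repopulation ran from −0.20 (Maf, 95% interval −0.40 to 0.00, adjusted p = 0.325) to 0.36 (Cebpb, 0.02 to 0.70, adjusted p = 0.293), with a median of 0.00. Cebpb passed the threshold in repopulation when the code in the column headers was added as a batch term. The Ki67 difference itself did not pass as different between repopulation and PND8 for any of the 8 genes, nor for any of the 12230 genes (0.0%) by edgeR, with 613 of all genes and 0 of the 8 at an unadjusted p under 0.05; DESeq2 called 3 genes and limma 0, none of them among the 8.

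Against adult cells, 4 of the 8 genes differed in PND8 Ki67-positive cells (1 higher and 3 lower), where 49.5% of all genes differed (25.1% higher and 24.3% lower). In PND8 Ki67-negative cells 3 of 8 differed, all lower, where 46.8% of all genes differed (25.4% higher and 21.4% lower). Repopulating Ki67-positive cells differed from adult in 7 of 8 (1 higher and 6 lower), against 44.9% of all genes (23.9% higher and 21.0% lower). Repopulating Ki67-negative cells differed in 4 of 8, all lower, against 39.2% of all genes (21.5% higher and 17.6% lower). The median log2 fold change of the 8 genes was −0.18 in both PND8 groups and −0.30 and −0.28 in repopulating Ki67-positive and Ki67-negative cells, where that of all genes lay between −0.01 and 0.03. These 4 comparisons share the adult libraries and are not independent of each other.

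**Figure D2:**
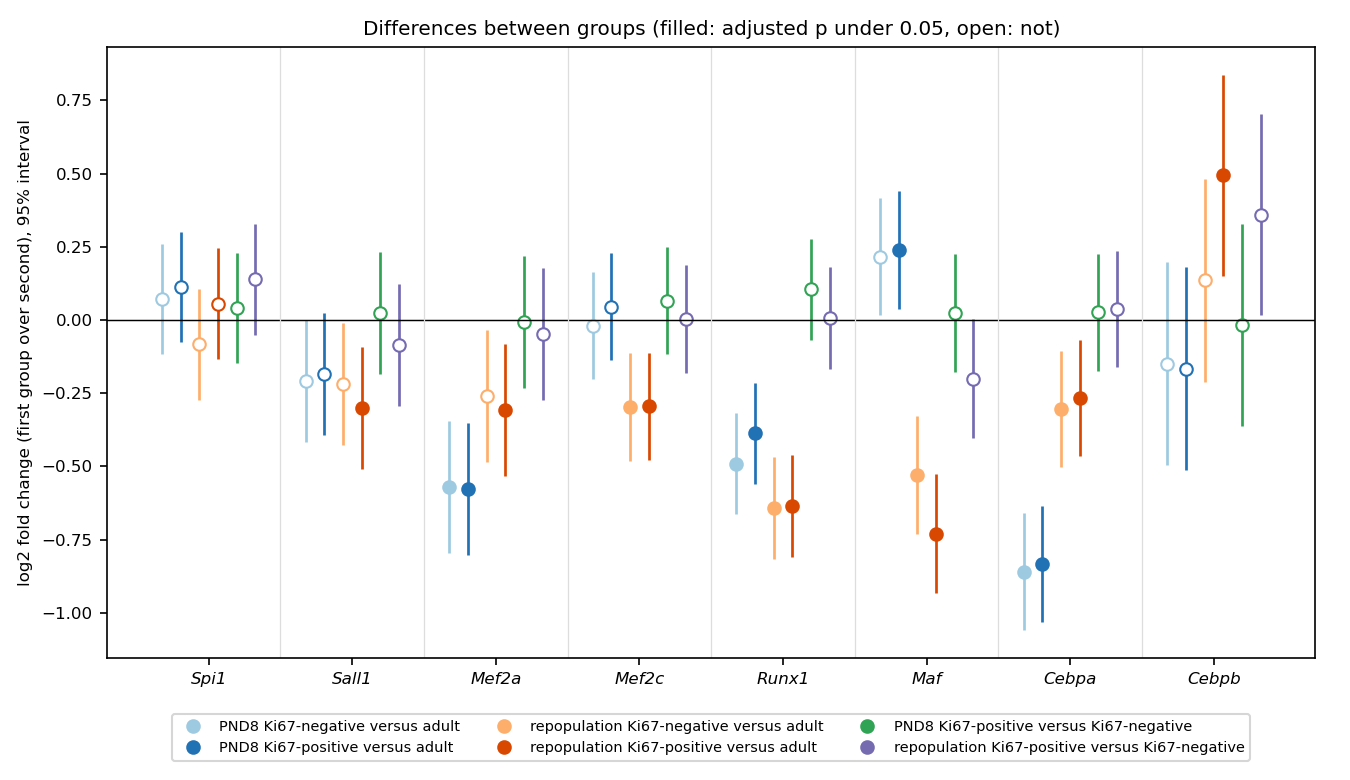
Log2 fold change of each gene with its 95% interval in 6 comparisons; filled points passed an adjusted p under 0.05 and open points did not. All 16 points of the Ki67 comparisons are open, and the filled points of Mef2a, Runx1 and Cebpa are all below 0.

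Repopulating cells were also set against PND8 cells of the same Ki67 status. Among Ki67-positive cells, 5 of the 8 genes differed (2 higher and 3 lower in repopulation), where 30.9% of all genes differed (16.7% higher and 14.2% lower). Among Ki67-negative cells 4 of 8 differed (2 higher and 2 lower), where 36.6% of all genes did (18.0% higher and 18.6% lower). The medians of the 8 genes were −0.09 and −0.08, against 0.00 and −0.04 for all genes. This comparison does not use the adult level, but the adult libraries are part of the fit that gave its scaling and estimate of spread. Replicate 1 of repopulation shares its header code with replicate 2 of PND8, so the comparison could also be read within 1 code.

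Spi1 encodes PU.1 (chr2:91096678-91115759, plus strand). Its adult libraries had 223 and 232 CPM, its PND8 libraries 234 to 248 CPM and its repopulating libraries 200.4, 229.8, 226 and 247 CPM. All 4 PND8 libraries were above both adult libraries, by little, and the repopulating libraries spread over the range of both. How many of all genes separate in this way was not counted. The log2 fold changes against adult ran from −0.08 to 0.11, with adjusted p from 0.296 to 0.633. The 95% intervals of the 4 comparisons together ran from −0.27 to 0.30. Between repopulating and PND8 cells the values were −0.06 when Ki67-positive (adjusted p = 0.658) and −0.16 when Ki67-negative (95% interval −0.34 to 0.03, adjusted p = 0.184), and the latter passed under 3 of 14 alternatives (library sizes only and both limma fits on TPM).

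Sall1 encodes the zinc finger factor known for microglial identity (chr8:89027243-89044162, minus strand). Both adult libraries had 1170.5 and 1177 CPM and were above the other 8, a pattern whose share of all genes was not counted. The other 8 had 918 to 1113 CPM. PND8 Ki67-negative cells held both ends of that range, with 1113 CPM in replicate 1 and 918 in replicate 2. Only repopulating Ki67-positive cells, with 971 and 933 CPM, passed the test against adult (log2 fold change −0.30, SE 0.097, adjusted p = 0.0215), at 81.1% of the adult level. That call was lost when adult replicate 1, adult replicate 2 or repopulating Ki67-positive replicate 2 was left out, with an adjusted p of up to 0.124. The values for the other 3 groups against adult were −0.18 to −0.22, with adjusted p from 0.0924 to 0.13. They too passed under some alternatives, 5 of 13 for repopulating Ki67-negative, 4 of 13 for PND8 Ki67-negative and 1 of 13 for PND8 Ki67-positive cells. A long noncoding gene, Gm3134, overlaps Sall1, and the strand setting of the counting is not given in the sources used here, so its reads cannot be told apart from those of Sall1.

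The MEF2 factors are MADS box proteins that act in muscle, neurons and immune cells. Mef2a (chr7:67231163-67372858, minus strand) had 878 CPM in both adult libraries, 518 to 664 CPM at PND8 and 686 to 752 CPM in repopulation. It showed no overlap between these 3 settings, and the share of all genes that show none was not counted. It stood at 67.0% of the adult level in PND8 Ki67-positive cells (log2 fold change −0.58, SE 0.105, adjusted p = 0.000503) and at 67.3% in their Ki67-negative counterparts (−0.57, adjusted p = 0.000638), and both calls held under all 13 alternatives. In repopulating cells the difference from adult was −0.31 (adjusted p = 0.0282) when Ki67-positive and −0.26 (adjusted p = 0.0635) when Ki67-negative, and the latter passed under 5 of 13 alternatives. The former call was lost without adult replicate 1, adult replicate 2 or repopulating Ki67-positive replicate 2. Repopulating Ki67-negative cells were above PND8 Ki67-negative cells by 0.31 (adjusted p = 0.0327), a call lost under 7 of 14 alternatives, among them leaving out PND8 Ki67-negative replicate 2 or either repopulating replicate. The Ki67-positive counterpart was 0.27 (adjusted p = 0.0664) and passed under 3 of 14.

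Mef2c (chr13:83524743-83667079, plus strand) followed another order. Its adult libraries had 609 and 629.8 CPM, its PND8 libraries 569.6 to 653 CPM and its repopulating libraries 492 to 518 CPM. The repopulating libraries were below all others, whereas both adult values lay within the PND8 range. The share of all genes with such an order was not counted. Against adult, the log2 fold change was 0.05 and −0.02 in PND8 Ki67-positive and Ki67-negative cells (adjusted p 0.68 and 0.867) and −0.30 in both repopulating groups (adjusted p 0.0125 and 0.014). Repopulating Ki67-positive cells were also below PND8 Ki67-positive cells, by −0.34 (SE 0.085, adjusted p = 0.00836), a call lost with the header code as a batch and without repopulating Ki67-positive replicate 2 (adjusted p of up to 0.0734). Ki67-negative cells gave −0.28 (adjusted p = 0.0211), which was lost under 6 of 14 alternatives, the batch included. The calls against adult were lost without adult replicate 2 or repopulating Ki67-positive replicate 2 for Ki67-positive cells, and without any 1 of the 4 libraries for Ki67-negative cells. Gm52043 and Gm52044, both long noncoding, overlap Mef2c and cannot be told apart from it here.

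Runx1 encodes the RUNX factor on which the emergence of blood stem cells depends (chr16:92601466-92697329, minus strand). The adult libraries had 332 and 329.8 CPM, PND8 libraries 234 to 262 CPM and repopulating libraries 204 to 220.2 CPM. The 3 settings did not overlap, and how many of all genes show the same was not counted. Runx1 was at 76.5% of adult in PND8 Ki67-positive cells (log2 fold change −0.39, SE 0.080, adjusted p = 0.0013), 71.1% in PND8 Ki67-negative cells (−0.49, adjusted p = 0.000254), 64.4% in repopulating Ki67-positive cells (−0.64, adjusted p = 3e-05) and 64.1% in repopulating Ki67-negative cells (−0.64, adjusted p = 3.66e-05). These 4 calls held under all 13 alternatives. Between repopulating and PND8 Ki67-positive cells the difference of −0.25 (adjusted p = 0.0316) was lost under 7 of 14 alternatives, including the batch term and leaving out PND8 Ki67-positive replicate 2 or either repopulating replicate.

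Maf encodes c-Maf, a basic leucine zipper factor of macrophage differentiation (chr8:115703253-115706894, minus strand). Its adult libraries had 618 and 592 CPM. At PND8, Ki67-negative libraries had 762 and 644 CPM and Ki67-positive ones 735 and 694 CPM. In repopulation the Ki67-negative libraries had 424 and 414 CPM and the Ki67-positive ones 381 and 348 CPM. The 4 PND8 libraries were all above the 2 adult libraries, and the 4 repopulating libraries all below them. How many of all genes show this order was not counted. The rise at PND8 was small, with 0.24 in Ki67-positive cells (95% interval 0.04 to 0.44, adjusted p = 0.0467) and 0.22 (adjusted p = 0.073, passing under 3 of 13 alternatives) in Ki67-negative ones. The former was lost under 6 of 13 alternatives, including leaving out any 1 of its 4 libraries, with an adjusted p of up to 0.212. Repopulating cells were at 60.3% of adult when Ki67-positive (log2 fold change −0.73, SE 0.094, adjusted p = 3.55e-05) and at 69.3% when Ki67-negative (−0.53, adjusted p = 0.000638).

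The largest difference of any of the 8 genes was that of Maf between repopulating and PND8 Ki67-positive cells, −0.97 (SE 0.094, adjusted p = 4.75e-06), or 51.0% of the PND8 level. Ki67-negative cells gave −0.75 (adjusted p = 4.5e-05), and both held under all 14 alternatives. Within the shared header code, where each setting has 1 library, the values were −0.87 and −0.60. Markers of border macrophages, at PND8 mostly Mrc1, have the values given above. Their sum moved in the same order as Maf across the settings (highest at PND8, lowest in repopulation). In PND8 Ki67-positive cells Mrc1, Pf4, Lyve1 and Cbr2 were above adult, and F13a1 and Ms4a7 overlapped it. Cd163 was below adult there (2.31 to 3.47 against 4.05 to 8.31 CPM). The part of these markers in the Maf difference was not tested.

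C/EBPα, encoded by Cebpa (chr7:35119293-35121928, plus strand), is a factor of early myeloid commitment that is known to restrain the cell cycle. The adult libraries had 364 and 386 CPM, PND8 libraries 187, 225, 208 and 213 CPM, and repopulating libraries 297 to 318 CPM. The 3 settings did not overlap, with PND8 lowest, and the share of all genes that show no overlap was not counted. Cebpa was at 56.1% of adult in PND8 Ki67-positive cells (log2 fold change −0.83, SE 0.092, adjusted p = 7.7e-06) and at 55.1% in PND8 Ki67-negative cells (−0.86, adjusted p = 7.5e-06), and both held under all 13 alternatives. The differences of repopulating cells from adult, −0.27 and −0.30 (adjusted p 0.0294 and 0.0181), were lost when any 1 of the 4 libraries of the comparison was left out. Repopulating cells were above PND8 cells by 0.57 when Ki67-positive (adjusted p = 0.000447) and by 0.56 when Ki67-negative (adjusted p = 0.000459), and by 0.52 and 0.40 within the shared header code.

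C/EBPβ is encoded by Cebpb (chr2:167688915-167690432, plus strand), which had the lowest counts of the 8. Its adult libraries had 80.2 and 72.2 CPM and its PND8 libraries 61.9 to 75.2 CPM. The repopulating Ki67-negative libraries had 76.0 and 91.9 CPM and the Ki67-positive ones 88.2 and 127 CPM, so that the highest value rested on 1 library. Against adult, the log2 fold change in repopulating Ki67-positive cells was 0.49 (SE 0.159, adjusted p = 0.0219). It was lost under 6 of 13 alternatives, among them limma on TPM and leaving out either adult replicate or repopulating Ki67-positive replicate 2, and ran from 0.21 to 0.72 over the alternatives. Against PND8 Ki67-positive cells the difference was 0.66 (adjusted p = 0.00686), and within the shared header code, which holds only repopulating replicate 1, it was 0.32. Without repopulating Ki67-positive replicate 2 or PND8 Ki67-positive replicate 1 that call was lost as well. No other comparison of Cebpb passed the test.

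Levels can be set against each other between genes only per transcript length, for which the deposited TPM values (scaled to transcript length and library total) were used. In adult cells Sall1 was highest, with a mean of 337 TPM (99.5th percentile of tested genes), followed by Maf (250.4), Mef2a (239.8), Spi1 (237), Cebpa (214), Mef2c (151), Cebpb (75.8) and Runx1 (75.5). Mef2a and Spi1 differed by less than the spread of the Spi1 replicates, 5.37 TPM (SD), and Cebpb and Runx1 by less than that of Cebpb, 5.83 TPM. In PND8 Ki67-positive cells Sall1 and Maf stood level at 295 TPM each, with Spi1 next at 255. In repopulating Ki67-positive cells Maf had moved from the second to the fifth place, with 143 ± 11.3 TPM (SD, n = 2), behind Sall1 (259), Spi1 (233), Mef2a (184) and Cebpa (169). Runx1 had the lowest mean TPM in all 5 groups, between 46.3 and 75.5. For Mef2a, Mef2c and Runx1 the TPM table uses another transcript than the count table.

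The genes whose log2 CPM ran most like each member over the 10 libraries were picked by Pearson's r. They were Efhd2 (r = 0.939) for Spi1, Zmiz1 (0.960) for Sall1, Nr3c1, the glucocorticoid receptor (0.987), for Mef2a, and Larp4 (0.990) for Mef2c. For Runx1 the gene was Zfp11 (0.980), for Maf Iqsec1 (0.993), for Cebpa Ncf4 (0.990), a subunit of the phagocyte NADPH oxidase, and for Cebpb Abhd16a (0.975). The next genes in each list were Psmd6, Picalm, Zfhx3, Ctnnd1, Mapkapk3, Rab32, Calhm2 and Vrk1, with r between 0.935 and 0.992. The 10 libraries fall into 3 settings and share their normalization, so these values describe likeness of pattern only.

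Paralogs of the 8 factors were tested for 12 of 19 genes. None differed between Ki67-positive and Ki67-negative cells in either setting by edgeR. In PND8 Ki67-positive cells 1 was higher and 8 were lower than in adult, with a median of −0.60 (all genes 0.00), where 25.1% of all genes were higher and 24.3% lower. Cebpg, a C/EBP factor that lacks an activation domain, fell (log2 fold change −1.39, adjusted p = 1.01e-06), Runx2 fell too (−2.04) and Maff rose (1.54). In repopulating Ki67-positive cells 1 paralog was higher and 6 were lower, with a median of −0.37 (all genes −0.01), where 23.9% of all genes were higher and 21.0% lower. Runx3 rose from 0.961 to 9.33 CPM (3.26, adjusted p = 0.00029) while Runx1 was lower, and Sall2 fell by 1.49 on the log2 scale. Mef2d (−0.56) and Mafk (−0.56) fell too.

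Of 16 tested partners and regulators of the 8 factors, 1 was higher and 5 were lower in PND8 Ki67-positive cells than in adult (median −0.19), and 4 were higher and 3 lower in repopulating Ki67-positive cells (median −0.01). The shares of all genes called in these comparisons, 49.5% and 44.9%, are no smaller. Cbfb, the subunit that RUNX factors bind to, rose in both, by 0.55 and 0.54. Irf4, a partner of PU.1 on composite sites, fell in both, by −1.57 and −1.65, and so did Smad3 (−0.70 and −0.39), which carries TGF-β signals. Hdac7 (1.65) and Hdac9 (0.98), class IIa deacetylases that bind MEF2 factors, rose in repopulating cells and Hdac4 (−0.56), of the same class, fell. None of the 16 differed with Ki67 status in either setting by edgeR.

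Genes known as PU.1 targets in macrophages moved in both directions while Spi1 did not pass the test. Of 12 tested, 2 were higher and 6 lower in PND8 Ki67-positive cells than in adult (median −0.21), with Adgre1 (0.42) and Lyz2 (0.38) higher and Cd14 (−1.14), Csf3r (−1.04) and Tlr4 (−0.74) lower. In repopulating Ki67-positive cells 2 were higher and 4 lower (median −0.01). Cybb, the catalytic subunit of the phagocyte oxidase, rose from 23.0 to 404 CPM there (4.13, adjusted p = 3.52e-08). Among 36 other macrophage transcription factors, 6 were higher and 11 lower in PND8 Ki67-positive cells (median −0.23), led by Tfec (3.43) and Egr3 (−3.48). In repopulating Ki67-positive cells 5 were higher and 12 lower (median −0.03), led by Myb (3.54) and Egr3 (−2.87). For these 36 factors, 17 were called in each comparison, near the 49.5% and 44.9% of all genes, and the 8 and 6 of 12 PU.1 targets stand beside the same shares. With Ki67 status at PND8, Klf6 was higher (0.47) and Myb (−1.19) and Tal1 (−0.36) lower among these 36, and Csf3r (−0.39) lower among the PU.1 targets, all in Ki67-positive cells.

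At the chromatin level, the start of every one of the 8 genes was marked in nearly all lists. A start counted as marked where a called region overlapped the 1 kb on either side. All 8 starts lay in a region of both adult H3K27ac lists, where 68.7% of tested genes did, and the same held for PND8 Ki67-negative (80.5%), PND8 Ki67-positive (82.3%), cuprizone Ki67-negative (73.4%) and cuprizone Ki67-positive cells (76.8%). In repopulating Ki67-positive cells 7 of 8 were marked in both lists (79.0%). The exception was Cebpb in replicate 1, whose region began 1140 bases past the start, just outside the window. Over all 12 lists, 7 of 8 starts were marked throughout, against 64.3% of tested genes. All 8 lay in a peak of the adult (88.3%), PND8 (89.2%) and repopulation (90.8%) ATAC lists, and so of all 3 (86.8%). All 8 also lay in a region of both H3K4me3 lists (89.8%) and in a peak of both adult Rpb2 lists (47.5%), of the PND8 Rpb2 list (80.4%) and of all 3 (47.1%). By mean TPM the 8 genes stood between the 73.5th and 99.5th percentile of tested genes over the RNA groups. Shares of marked starts among genes of like RNA level were not computed. With 2 lists against 2, an exact test cannot go below a two-sided p of 0.333, and no test was made.

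Within a list, regions were ranked by the authors' signal, and ranks from lists of different lengths show no change. Spi1 start regions lay between the 96.7th and 99.4th percentile of their lists in all 12, and those of Mef2a between the 96.8th and 99.5th. Sall1 reached the 99.9th percentile in a PND8 Ki67-positive list and was at the 89.6th in adult replicate 1. Maf was at the 73.2nd and 77.9th percentile in the adult lists and between the 87.7th and 96.7th in the other 10. Cebpb had the lowest range, from the 70.3rd to the 91.5th in 11 lists. The broadest mark was H3K4me3 at Sall1, a region of 12577 and 12493 bases in the 2 adult lists, at the 99.99th percentile of both. Maf had 8693 and 8585 bases of H3K4me3, and Cebpa had the strongest Rpb2 peaks of the 8, at the 99.5th to 99.9th percentile.

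**Figure D3:**
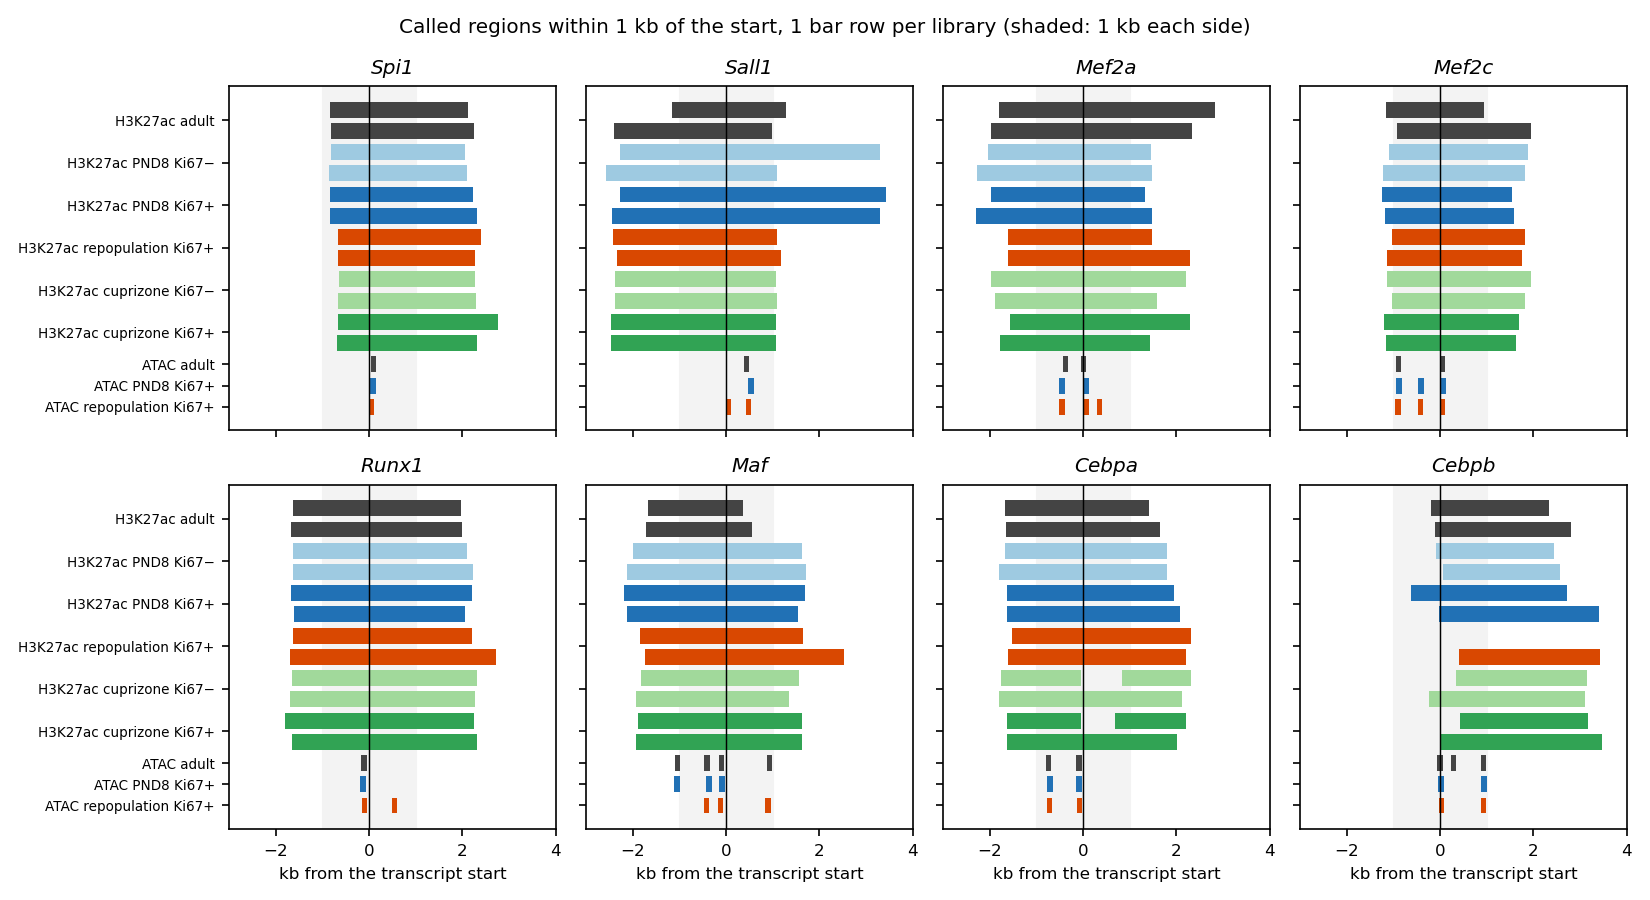
Called regions that reach within 1 kb of each transcript start, 1 bar row per library, against distance from the start in kb in the direction of transcription. The Maf bars are shorter in both adult rows (2027 and 2272 bases) than in the other 10 rows (3289 to 4265 bases), 3 of the 4 PND8 rows of Sall1 reach 3295 to 3418 bases into the gene in 1 piece, and the Cebpb row of repopulation replicate 1 is empty.

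The width of the H3K27ac start region differed between the adult and the other lists in 4 of the 7 genes marked in all 12 lists. Adult regions were narrower than all 10 others at Maf (2027 and 2272 bases against 3289 to 4265), Sall1 (2451 and 3383 against 3468 to 5740, for the piece at the start) and Runx1 (3606 and 3657 against 3677 to 4411). These 3 of 7 genes compare with 11.9% of tested genes marked in all lists, measured in the same way. Runx1 is among the 3 by a narrow margin (3657 against 3677 bases). Sall1 is not when both of its called pieces are counted, as given below. At Mef2a the adult regions were wider (4619 and 4296 against 3077 to 4187), which 0.649% of tested genes show. Widths at Spi1, Mef2c and Cebpa overlapped. The median width over tested genes was 1633 and 1840 bases in the adult lists and 1782 to 2097 in the others, and 32.6% and 58.3% of tags fell in regions in the adult lists against 45.5% to 69.7% in the others, so the lists differ as wholes. The part of this in the widths was not tested.

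At Sall1 the mark was called as 1 unbroken region in PND8 Ki67-negative replicate 1 (5590 bases) and both PND8 Ki67-positive lists (5703 and 5740 bases). The other 9 lists held 2 called pieces over the same stretch. Summed, the pieces covered 5313 bases in PND8 Ki67-negative replicate 2, 4913 to 5077 in cuprizone, 4267 and 4512 in repopulation, and 2951 and 4291 in adult. With both pieces counted, adult replicate 2 was therefore above repopulation replicate 2, and the adult lists were not narrower than all others. At Maf, Runx1 and Mef2a each list held 1 piece. Sall1 RNA was below adult in all PND8 libraries. At Cebpa the region was broken around the start in the replicate 1 lists of both cuprizone groups, which share a header code, and was unbroken in the replicate 2 lists.

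Within 50 kb on either side of the 8 starts, the H3K27ac regions of the 12 lists merged into 76 regions. Of these, 31 (40.8%) were in all 12 lists, 11 (14.5%) in 1 list only and 34 in 2 to 11, where the genome as a whole had 36.9% of 40724 regions in all lists and 14.3% in 1. Cebpa had most, with 15 regions, and Maf fewest, with 5, of which only the start region was in all 12 lists. Spi1 had 5 of 8 regions in all lists. One of them, at positions -16365 to -9007 from the start, held 5 ATAC peaks in each of the 3 lists, and it lies in the interval where upstream enhancers of Spi1 are known. Cebpb had 7 of 12 regions in all lists, and 3 of these lie in the upstream gene Tmem189.

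A region absent from both adult lists and present in all 10 others was found once among the 76 (1.32%, against 0.84% of all regions), and none was in both adult lists only (0%, against 0.0368%). It lies 44.4 kb after the Cebpa start (chr7:35162801-35164665), in Gm38988, at the 35.9th to 66.2nd percentile of the 10 lists. An ATAC peak overlapped it in all 3 lists, the adult one included. It was absent from adult replicate 2 and present in the 3 other lists that carry the same header code. Other regions were called in few lists and mostly at low rank. A region 13.5 kb after the Spi1 start was called in both cuprizone Ki67-negative lists only, at 500 bases and the 1.24th and 5.82nd percentile. One 8.7 kb before the Cebpb start was in both repopulating lists, 1 PND8 Ki67-positive and 1 cuprizone Ki67-positive list, at the 1.9th to 28.3rd percentile, and one 26.8 kb after the Maf start was in both PND8 Ki67-negative lists and 1 PND8 Ki67-positive list, at the 3.89th to 15.4th percentile.

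**Figure D4:**
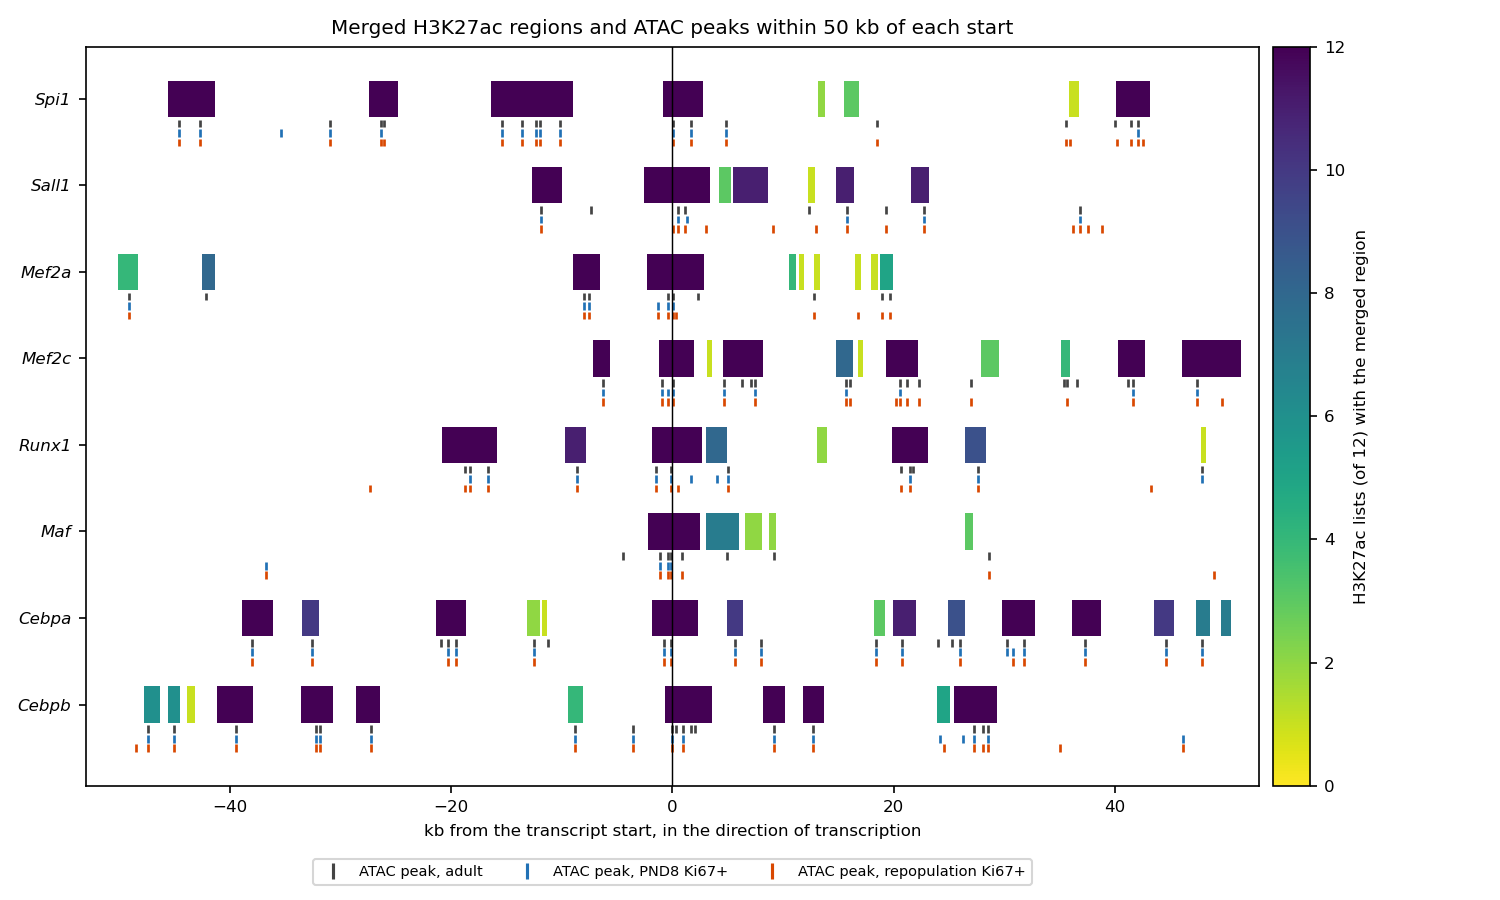
Merged H3K27ac regions (bars, coloured by how many of the 12 lists hold them) and ATAC peaks of the 3 lists (ticks) within 50 kb of each transcript start, against distance in kb in the direction of transcription. Spi1, Mef2c and Cebpb have 5, 6 and 7 regions in all 12 lists, while Maf has 1, its start region.

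ATAC peaks within 50 kb merged into 147 peaks, of which 73 were in all 3 lists, 21 in adult only, 6 in PND8 only and 21 in repopulation only. The lists held 71642, 75296 and 95411 peaks. Of the 147, 120 (81.6%) touched an H3K27ac region, where 71.4%, 62.3% and 58.4% of all peaks of the 3 lists did. All 13 peaks around Mef2a touched one. The share was 58.8% of 17 around Sall1 and 60.0% of 10 around Maf. At the Spi1 start the peak began at positions 33, 26 and -1 in the adult, PND8 and repopulation lists and was at the 94.8th to 97.1st percentile. Cebpa showed a peak that ended at positions -32, -27 and -19, in the sequence printed above, at the 95.1st, 96.2nd and 98.8th percentile of the adult, PND8 and repopulation lists. Maf had peaks centred at -0.1, -0.39 and -1.07 kb in all 3 lists, and a peak at 0.91 kb in the adult and repopulation lists only. With 1 ATAC library per group there is no replicate check.

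Several of the genes have more than 1 start. The TPM table places the Runx1 start 128745 bases upstream of the count table's, at the distal promoter, and that start too was marked by H3K27ac in all 12 lists and by ATAC in all 3. Its H3K27ac region lay at the 80.0th to 89.9th percentile, below the 92.7th to 98.2nd of the proximal start whose sequence is shown. The 3 RefSeq starts of Mef2c differed. The one 20.7 kb upstream was marked in 0 of 12 H3K27ac lists and in 0 of 3 ATAC lists, the one 1.1 kb upstream in all of both, and the one 48.9 kb downstream in all 12 H3K27ac lists, at the 93.4th to 99.7th percentile, but in 1 of 3 ATAC lists and 1 of 2 H3K4me3 lists.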

How the data were processed

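The 8 genes and the gene lists were chosen with earlier results of these data known. The deposited RNA values are whole counts per gene, which HOMER took from the exons of mm10 transcripts, 1 transcript a gene and at most 3 tags a position, per the file headers. The deposited TPM values were made by HOMER too and summed to 472498 to 486779 per library over the genes listed. The authors called peaks with HOMER in each library separately, per the file headers. The deposited peak signal is a tag count scaled to library size and the deposited peak score is HOMER's, and both only ranked or filtered regions within a list. STAR 2.7.0f, Bowtie2 2.3.4.1 and HOMER 4.11 are named in the submitters' processing notes.

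The count test was a quasi-likelihood fit of edgeR 4.0.16 (R 4.3.3; TMM, filterByExpr, 1 fit over all 10 libraries with a term per group, Benjamini-Hochberg over 12230 genes) in 8 comparisons and 1 difference of differences. The common biological coefficient of variation was 0.0957, and the code was tested on simulated data. Alternatives were DESeq2 1.42.0, limma 3.58.1 on log2(TPM + 1) and log2(TPM + 0.1), other scalings, no filter, a threshold of 0.01, only the groups compared, leaving out each library, the replicate number as a block and the code in the column headers as a batch. P-values measure only the spread between these libraries. Replicates differed by more than sampling noise (chi-square per degree of freedom 2.56 to 12.1).

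Regions were matched to the start of the count table's transcript with at least 1 base of overlap. ATAC headers name no build, and their positions were read as mm10. Named genes were the 8 members, Mki67, up to 3 called genes with the largest change in each direction per list and comparison, and the 2 genes most correlated with each member, of which not all are printed.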

Additional observations from a re-analysis of the deposited data

Results flagged for a closer look

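For 6 of the 8 genes the change against adult differed between repopulation and PND8 in at least 1 Ki67 status. The test was edgeR's direct one of repopulating against PND8 cells. It does not use the adult level, but the adult libraries are part of the fit that gave its scaling and estimate of spread. It called 30.9% of all genes among Ki67-positive and 36.6% among Ki67-negative cells. The share called in either was not computed and is no smaller than 36.6%, so the 6 of 8 has no matching share beside it. The calls of Maf and Cebpa held under all 14 alternatives. Those of Runx1 and Mef2a were each lost under 7 of 14, and those of Cebpb and Mef2c under 2 to 6. In Ki67-positive cells the difference was −0.97 for Maf (0.24 at PND8 and −0.73 in repopulation against adult, SE of the difference 0.094, adjusted p = 4.75e-06), 0.57 for Cebpa (−0.83 and −0.27) and −0.25 for Runx1 (−0.39 and −0.64). It was 0.66 for Cebpb (−0.17 and 0.49) and −0.34 for Mef2c (0.05 and −0.30), whose changes against adult also had opposite signs, with the PND8 change of both not called. In Ki67-negative cells it was −0.75 for Maf (0.22 and −0.53), 0.56 for Cebpa (−0.86 and −0.30), 0.31 for Mef2a (−0.57 and −0.26) and −0.28 for Mef2c (−0.02 and −0.30). Maf in Ki67-positive cells was the 1 case in which both changes against adult were called and had opposite signs. Its PND8 change was near the threshold (adjusted p = 0.0467 by edgeR). That call was lost under 6 of 13 alternatives, including leaving out any 1 of its 4 libraries. The changes at PND8 and in repopulation are taken against the same 2 adult libraries.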

How the results depend on the processing

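Of the 1008 values of single members under an alternative, 920 stayed on their side of the threshold, 62 fell short of it and 26 newly passed it. No called value changed sign (0). Among the 920, 61 values that were not called changed sign. The number of members called changed by over 1.5 times in the cases given next. The ranges for leaving out 1 library, given after them, also include smaller changes and none. A threshold of 0.01 gave 2 in place of 7 for repopulating Ki67-positive against adult, 2 in place of 4 for repopulating Ki67-negative against adult, and 2 in place of 4 for repopulating against PND8 Ki67-negative cells, where a fit on only those 2 groups also gave 2. Without a filter on low counts, PND8 Ki67-negative against adult gave 5 in place of 3. The header code as a batch term gave 1 in place of 0 for the Ki67 difference in repopulation. Leaving out 1 library gave 2 to 6 in place of 7, 2 to 2 in place of 4, 2 to 4 in place of 5 (repopulating against PND8 Ki67-positive cells) and 2 to 3 in place of 4, and for PND8 against adult 3 to 3 in place of 4 (Ki67-positive) and 3 to 4 in place of 3 (Ki67-negative); the Ki67 comparisons stayed at 0 to 0. The lone library of a group is then assumed to vary like the other groups. With the replicate number as a block, the numbers of members called were 0 and 0 for the Ki67 differences, 4 and 3 for PND8 and 7 and 4 for repopulation against adult, and 5 and 4 for repopulation against PND8, and the block changed no count of members. Same-numbered libraries deviated together between the Ki67-positive and Ki67-negative groups at PND8 (r = 0.338 across genes) and in repopulation (r = 0.263). They did not do so across settings (r from −0.01 to 0.10). Within a setting, same-numbered Ki67-positive and Ki67-negative libraries also carry the same header code. The main Ki67 test did not pair them, and the block used the same replicate number over all settings. Whether same-numbered libraries of a setting form pairs was not tested. Over all genes, the count with a Ki67 difference was 721 at PND8 and 335 in repopulation, 1228 and 711 with the block, 1631 and 998 when the header code entered as a batch, and 220 to 1113 and 105 to 305 when 1 library was left out. It was 1290 and 736 without a filter, 330 and 164 at a threshold of 0.01, and 392 and 266 in fits of only the groups compared. The difference of the Ki67 effect between settings had 0 calls over all genes, 52 without a filter, 11 with the header code, 2 with the block and up to 71 without a library (PND8 Ki67-negative replicate 1). For adult H3K4me3, 2 of 8 starts were marked when the region's centre had to lie within the window and 3 when only regions at or above the median score counted. The cause of these changes was not tested, other than that fewer libraries, genes or regions enter some of them. Every library held 6865903 counts or more, and what depth or the 2 libraries per group each limit was not separated. In the chromatin lists, 2 against 2 cannot reach an exact two-sided p below 0.333.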
